A study of Mus musculus with 18 samples.

Results

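Hyaluronan, the long unsulphated sugar chain of the skin matrix, was followed through 8 genes that make, bind or degrade it: the synthases Has1, Has2 and Has3, the precursor enzyme Ugdh, the receptor Cd44, the hyaluronidases Hyal1 and Hyal2, and Cemip. The genes were chosen by function, but selected on earlier results that included a rise of Has2 RNA at 6h of macroH2A2 induction. For these 8 genes, differences between 6h and 0h are therefore given as a description without a p-value, and so are those between 24h and 6h, which use the same 6h libraries. For other genes p-values are given for many, but not all, of the differences named. All 8 genes had a row among the 48440 genes counted, and all 8 passed the filter on low counts among 13785 genes tested. Each was also among the 18415 protein-coding genes of 3 kb or more whose bodies were read for called chromatin regions.

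The cells were SV40-immortalized dermal fibroblasts from newborn male mice of strain 129/S6, at passages 20 to 30. All of them, uninduced cells included, are labelled as double knockouts for macroH2A1 and macroH2A2 that carry a macroH2A2-GFP transgene under doxycycline control. MacroH2A2 is a histone H2A variant with a large macro domain. Poly(A) RNA was sequenced in triplicate from untreated cells (0h) and after 6h and 24h of doxycycline at 0.5 ug/ml. Native ChIP for macroH2A2-GFP was done once per condition, in untreated cells and after 6h, 24h and 5d of doxycycline. A further library was made at 24h with the CDK9 inhibitor flavopiridol at 0.5 uM for the last 18 hours. The 6h and 24h times were also profiled after 10 days of the Ezh2 inhibitor GSK126 at 5 uM. H2A.Z, another H2A variant, was profiled in 1 library of primary dermal fibroblasts that were wild type, female, newborn and of the same strain, at passages 0 to 1. No doxycycline control without the transgene is among the groups used here, so doxycycline and macroH2A2-GFP cannot be told apart. The labels call the RNA libraries biological triplicates and do not say how the cultures were separated.

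Hyaluronan is polymerised at the inner face of the plasma membrane by the Has enzymes, which add UDP-glucuronate and UDP-N-acetylglucosamine in turn and push the growing chain out of the cell. Ugdh oxidises UDP-glucose to UDP-glucuronate. Cd44 holds the chain at the cell surface and takes it up, Hyal2 and Hyal1 cut it at the surface and in lysosomes, and Cemip is needed for its depolymerisation by skin fibroblasts. Has2 is known as the main synthase of dermal fibroblasts.

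RNA libraries held 29338093 to 37793178 counts over genes. RNA of H2afy2, the gene of macroH2A2, stood at 10.5, 25.3 and 9.61 CPM (read counts scaled by library size, per M counts) in the 3 libraries at 0h, at 823, 833 and 805 CPM at 6h and at 1741, 1713 and 1727 CPM at 24h. H2afy, the gene of macroH2A1, stood at 51.5 to 60.6 CPM in all 9 libraries, and counts per gene do not show which exons those reads came from. All 9 fibroblast markers were at 1 CPM or more at each time, with a summed level of 10225 to 10524 CPM at 0h and 9480 to 9744 CPM at 6h. The lowest was Dcn, with means of only 1.82 CPM at 0h, 1.41 CPM at 6h and 1.13 CPM at 24h. Of the 9 markers, 1 was called higher and 6 lower at 6h, where 20.8% of all tested genes were called higher and 18.2% lower. Marker lists of keratinocytes, endothelium, macrophages and leukocytes, and melanocytes and Schwann cells each summed to at most 6.00 CPM in any library. The 5 muscle and adipocyte markers summed to 4.30 to 5.57 CPM at 0h and 11.9 to 12.2 CPM at 6h, most of it from Acta1. In bulk RNA, a change in the number of cells of a type and a change in RNA per cell cannot be told apart.

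The 250 bases upstream of 1 annotated transcript start are shown for 4 genes, because they cover the patterns of called regions seen: macroH2A2-GFP (Has1), H2A.Z (Ugdh and Cemip) or neither (Cd44). RefSeq GRCm38.p6 gave such a window for 6 of the 8 genes (Has1, Cd44, Hyal1, Hyal2, Ugdh and Cemip). The start used is not always the outermost of the gene: the windows of Has1 and Hyal2 lie wholly within the full span of the gene, and those of Cemip and, by a few bases, Cd44 reach into it. The windows shown are chr17:17855189-17855438 (Has1), chr2:102901666-102901915 (Cd44), chr5:65435843-65436092 (Ugdh) and chr7:84086506-84086755 (Cemip), all on the minus strand and read 5′ to 3′. Capitals mark matches, on either strand, to 5 motifs. These were the GC box with the letters GGGCGG, the site of AP-1 factors with TGANTCA, the CCAAT box with the letters of its name, the TATA box with TATAAA, and the cyclic AMP response element (CRE) with TGACGTCA. Matches that overlap were each counted.
Has1: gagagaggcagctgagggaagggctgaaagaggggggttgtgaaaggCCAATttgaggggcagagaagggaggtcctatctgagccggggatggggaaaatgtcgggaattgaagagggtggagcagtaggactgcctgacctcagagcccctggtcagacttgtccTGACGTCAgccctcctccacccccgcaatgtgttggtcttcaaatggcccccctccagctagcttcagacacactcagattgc
Cd44: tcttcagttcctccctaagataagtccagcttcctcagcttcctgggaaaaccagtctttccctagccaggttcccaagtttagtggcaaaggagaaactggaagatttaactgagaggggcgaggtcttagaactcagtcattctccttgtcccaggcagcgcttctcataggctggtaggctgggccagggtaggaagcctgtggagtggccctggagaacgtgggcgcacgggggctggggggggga
Ugdh: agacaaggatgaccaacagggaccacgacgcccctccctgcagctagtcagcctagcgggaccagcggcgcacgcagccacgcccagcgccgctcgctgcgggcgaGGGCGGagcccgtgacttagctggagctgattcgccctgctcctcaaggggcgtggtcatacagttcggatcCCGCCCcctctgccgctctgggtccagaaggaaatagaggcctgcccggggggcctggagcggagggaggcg
Cemip: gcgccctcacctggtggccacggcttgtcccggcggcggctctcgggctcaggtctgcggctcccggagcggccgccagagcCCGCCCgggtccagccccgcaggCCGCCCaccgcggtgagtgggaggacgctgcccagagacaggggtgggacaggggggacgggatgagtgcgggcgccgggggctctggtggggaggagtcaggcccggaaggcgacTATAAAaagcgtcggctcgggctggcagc

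Has1 held 1 CCAAT box and 1 CRE, Cd44 held none of the 5 motifs, Ugdh held 2 GC boxes, and Cemip held 2 GC boxes and 1 TATA box. Among the windows not shown, Hyal1 held 2 GC boxes that overlap and 1 CCAAT box, and Hyal2 held 1 GC box. Over all 32851 RefSeq promoter windows of this length, 32.7% held a GC box, 33.8% a CCAAT box, 12.4% a TATA box, 6.75% an AP-1 match and 1.55% a CRE. GC content was 75.2% for Cemip, 69.2% for Ugdh, 58.0% for Has1 and 56.4% for Cd44, against a median of 52.4% over all windows. Cemip held 26 CpG and Ugdh 22, while Has1 held 4 and Cd44 5, against a median of 6. A match to these letters describes the window only.

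Has2 had the largest difference between times among the 8 genes. At 0h its RNA was 54.1, 56.4 and 53.6 CPM. At 6h the libraries read 149, 160 and 145 CPM, each far above every library at 0h. At 24h they read 53.1, 53.1 and 54.2 CPM, so that the 24h and 0h libraries overlapped. The log2 difference was 1.47 ± 0.035 (SE, n = 3 against 3) from 0h to 6h and -1.50 ± 0.035 from 6h to 24h. Between 24h and 0h it was -0.03 ± 0.038, with a 95% interval from -0.11 to 0.05 and an adjusted p of 0.723 by the quasi-likelihood test of edgeR over all 13785 genes. This test shares its 0h libraries with the comparison from which the list arose.

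Has1, the synthase of lowest enzymatic activity, rested on few reads, with 23 to 29 counts per library at 0h. Its level was 0.827, 0.757 and 0.685 CPM at 0h and 1.72, 1.86 and 1.98 CPM at 6h, with no overlap. At 24h it was 0.919, 1.09 and 1.31 CPM, between the other times and overlapping neither. The log2 difference was 1.28 ± 0.21 at 6h against 0h, -0.74 ± 0.20 at 24h against 6h and 0.54 ± 0.23 at 24h against 0h. The last had a 95% interval from 0.07 to 1.01 and did not pass (edgeR adjusted p = 0.179). When reads were counted without regard to strand, the 3 differences were 0.72, -0.44 and 0.28.

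Has3, which makes shorter chains, also rested on few reads. It stood at 1.28, 0.848 and 0.953 CPM at 0h, and at 2.17, 1.79 and 1.21 CPM at 6h. These groups overlapped, since the lowest library at 6h lay under the highest at 0h. At 24h it was 1.06, 0.953 and 0.772 CPM. The log2 difference was 0.76 ± 0.23 at 6h against 0h, and it was no longer called without 0h replicate 2 (log2 0.64) or without 6h replicate 1 (log2 0.55). From 6h to 24h it was -0.91 ± 0.23 without overlap, but only -0.43 when reads were counted without regard to strand. Against 0h the 24h libraries differed by -0.15 ± 0.26, with an interval from -0.67 to 0.37 (edgeR adjusted p = 0.819).

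Has2os, the antisense RNA that overlaps the upper part of Has2, stood at 1.34, 1.48 and 1.40 CPM at 0h, 1.37, 1.49 and 1.57 CPM at 6h and 1.27, 1.40 and 1.48 CPM at 24h. These ranges overlapped at all times. Its log2 difference at 6h against 0h was 0.07 ± 0.19 (edgeR adjusted p = 0.819), with a 95% interval from -0.32 to 0.45. The libraries mark strand, so reads of Has2 and Has2os were counted apart.

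Ugdh, the supplier of UDP-glucuronate, moved the same way by a smaller amount. It stood at 484, 479 and 470 CPM at 0h, 554, 558 and 557 CPM at 6h and 460, 467 and 487 CPM at 24h. All 3 libraries at 6h lay above the other 6. The log2 difference was 0.22 ± 0.024 at 6h against 0h and -0.24 ± 0.024 at 24h against 6h. The 24h libraries differed from 0h by -0.02 ± 0.024 (edgeR adjusted p = 0.745).

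Cd44 showed the same order of times. Its level was 472, 467 and 453 CPM at 0h, 633, 635 and 608 CPM at 6h and 460, 471 and 462 CPM at 24h. The 6h libraries stood apart, and the 0h and 24h libraries overlapped. The log2 difference was 0.43 ± 0.024 at 6h against 0h and -0.43 ± 0.025 at 24h against 6h. The difference of 24h from 0h was 0.00045, with an interval from -0.05 to 0.05 (edgeR adjusted p = 0.996).

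The breakdown genes did not share this course. Hyal2 read 33.0, 34.8 and 32.6 CPM at 0h, 32.5, 33.0 and 32.4 CPM at 6h and 32.2, 32.6 and 34.0 CPM at 24h. Its log2 differences were -0.04 ± 0.043 at 6h and -0.02 ± 0.043 at 24h against 0h (edgeR adjusted p = 0.833 for 24h), and all 3 groups overlapped. Hyal1 ranged from 0.502 to 1.22 CPM over the 9 libraries, with the lowest and the highest value both at 6h. Its log2 difference was -0.18 ± 0.27 at 6h and 0.05 ± 0.26 at 24h against 0h (edgeR adjusted p = 0.950 for 24h). The 95% interval of Hyal1 at 6h ran from -0.72 to 0.36, a range that holds the difference of Ugdh at 6h. At 24h it ran from -0.47 to 0.58, wider than the difference seen for Cd44 at 6h.

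Cemip lay lowest at 6h. It read 2.88, 2.45 and 3.16 CPM at 0h, 2.50, 2.16 and 2.08 CPM at 6h and 3.03, 3.37 and 3.18 CPM at 24h. The highest library at 6h lay just above the lowest at 0h, and the 6h and 24h libraries did not overlap. The log2 difference was -0.33 ± 0.15 at 6h against 0h (-0.42 without 0h replicate 2) and 0.50 ± 0.14 at 24h against 6h. Between 24h and 0h it was 0.17 ± 0.14 (edgeR adjusted p = 0.565).

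**Figure D1:**
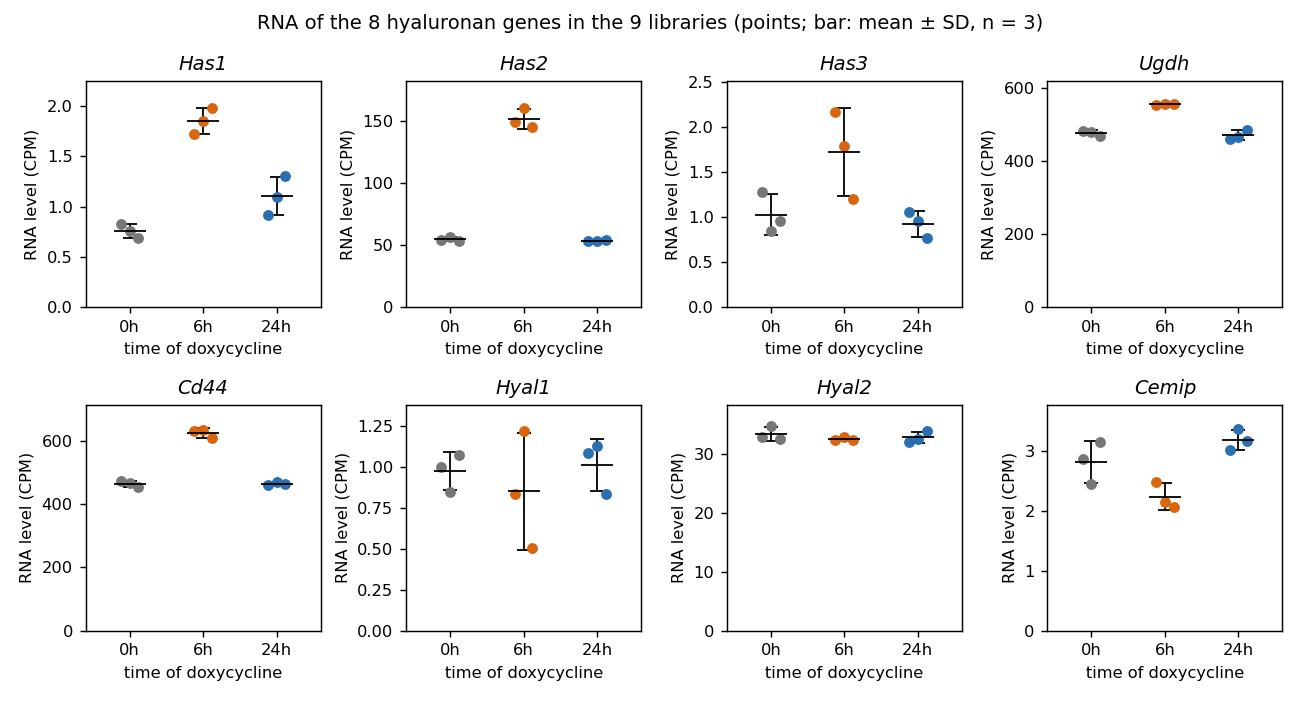
RNA level in CPM (linear axis from 0, a scale of its own for each gene) of the 8 genes at 0h, 6h and 24h of doxycycline. Points are the 3 libraries of a time and bars the mean ± SD; Has2 stands at 145 to 160 CPM at 6h and at 53.1 to 56.4 CPM at the other times.

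At an edgeR adjusted p under 0.05, 5 of the 8 genes were called higher at 6h than at 0h (Has1, Has2, Has3, Ugdh and Cd44) and 0 lower, where 20.8% of all tested genes were called higher and 18.2% lower (39% in either direction). DESeq2 gave the same counts, and 1 gene, Cemip, was lower at an unadjusted p under 0.05. From 6h to 24h, 5 genes were called lower and Cemip higher, where 18.8% of all genes were called lower and 17.4% higher (36.1% in either direction). Has3 lost its call in 2 of 15 alternative settings at 6h against 0h and in 1 of 15 at 24h against 6h. Cemip gained a call at 6h against 0h in 1 of 15. Nothing is read from either count or from single calls, because the list was drawn up with the 6h libraries known, which both counts use. At 24h against 0h, 0 of 8 genes were called by edgeR or by DESeq2, where 7.04% of all genes were called, 4.17% higher and 2.87% lower, and Has1 alone had an unadjusted p under 0.05. The median log2 difference of the 8 genes was 0.32 at 6h, -0.01 at 24h against 0h and -0.33 at 24h against 6h, and that of all tested genes was 0.0067, -0.0017 and 0.0013.

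**Figure D2:**
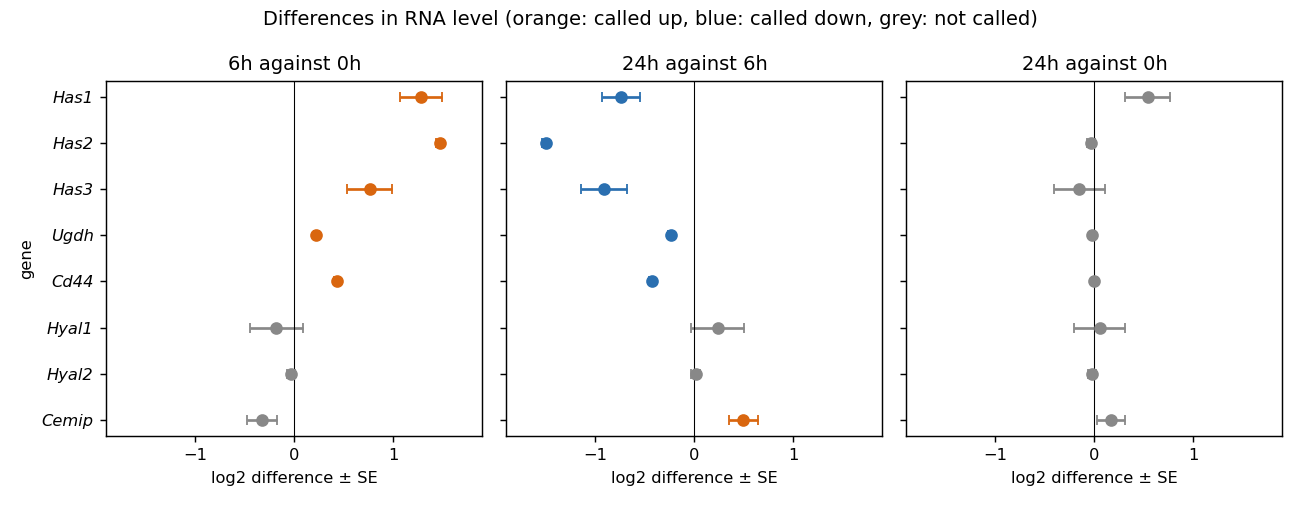
Log2 difference (x axis) ± SE for each gene in the 3 comparisons of time. The 3 synthases, Ugdh and Cd44 lie to the right of 0 at 6h against 0h, with Has2 at 1.47, and to the left at 24h against 6h, while all 8 genes are grey (not called) at 24h against 0h.

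The genes whose course over the 9 libraries was most like that of Has2, by Pearson r of log2 CPM among 10691 protein-coding genes of 1 CPM or more, included Mapk6 (0.998), Mybbp1a (0.998), Adam19 (0.997) and Fermt2 (0.997). The 9 points fall into 3 times, so r mostly reflects which time stood apart. Adam19, a membrane metalloproteinase, read 55.7 CPM at 0h, 96.8 CPM at 6h and 53.9 CPM at 24h. Within the list, r with Has2 was 0.995 for Cd44, 0.980 for Ugdh, 0.887 for Has1, 0.808 for Has3, -0.277 for Hyal2, -0.342 for Hyal1 and -0.837 for Cemip.

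Of 15 genes that make, carry or use the sugar donors, all tested, 4 rose and 3 fell at 6h, with a median log2 difference of 0.01. For all tested genes 20.8% rose and 18.2% fell, so 7 of 15 lies near the background of 39%. Gnpnat1, an acetyltransferase on the route to UDP-N-acetylglucosamine, rose from 24.6 to 30.9 CPM (log2 0.33 ± 0.050, edgeR adjusted p = 4.7e-06). Oga, which removes N-acetylglucosamine from proteins, fell from 128 to 102 CPM (log2 -0.32 ± 0.028, edgeR adjusted p = 3.4e-10), and Uap1l1, a relative of the enzyme that forms UDP-N-acetylglucosamine, fell from 44.6 to 33.2 CPM (log2 -0.43 ± 0.043, edgeR adjusted p = 4.9e-09). From 6h to 24h 5 rose and 5 fell, where 17.4% of all genes rose and 18.8% fell. Oga and Uap1l1 rose by 0.33 and 0.48 while Gnpnat1 fell by 0.23 (log2). None of the 15 was called at 24h against 0h by edgeR or DESeq2, with 1 at an unadjusted p under 0.05. Of all genes, edgeR called only 7.04% there.

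Of 19 genes for proteins that bind hyaluronan or its matrix, 7 were expressed enough to be tested, and 1 rose and 1 fell at 6h against the same background. C1qbp, which binds hyaluronan but is found mainly in mitochondria, rose at 6h from 211 to 248 CPM (log2 0.23 ± 0.025, edgeR adjusted p = 2.1e-08). Vcan, the large proteoglycan versican that is anchored on hyaluronan, fell from 582 to 486 CPM (log2 -0.26 ± 0.037, edgeR adjusted p = 2.1e-06). Against 0h, Vcan at 24h was lower by a log2 of -0.13 ± 0.037 (edgeR adjusted p = 0.025), a call lost in 7 of 15 alternatives. Ptx3, a pentraxin of the hyaluronan matrix, was higher by 0.30 ± 0.080 (edgeR adjusted p = 0.0187), a call lost in 3 of 15, each without 1 library. The median of the 7 genes was -0.02 at 6h and 0.00 at 24h against 0h.

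Of 10 other receptors and membrane linkers, 7 were tested, and 2 rose and 2 fell at 6h, where 20.8% and 18.2% of all genes did, with a median log2 difference of -0.02. Msn, moesin, one of the proteins that tie the tail of Cd44 to actin, rose from 1782 to 2032 CPM (log2 0.19 ± 0.022, edgeR adjusted p = 5.8e-08) and fell by 0.20 from 6h to 24h. Its relatives ezrin (Ezr, log2 0.09 ± 0.026) and radixin (Rdx, log2 -0.07 ± 0.023) were called higher and lower at 6h. The Ezr call was lost without 6h replicate 1 (edgeR adjusted p = 0.0582), and the Rdx call was lost when any of 3 libraries was left out (replicate 2 of 0h, replicates 1 and 2 of 6h), with adjusted p up to 0.102 by edgeR. The fourth call, Tlr4 (log2 -0.40 ± 0.15), was lost in 5 of 15 alternatives. Of the 7 genes, 0 were called at 24h against 0h by edgeR or DESeq2, with 2 lower at an unadjusted p under 0.05. The share of all genes called by edgeR was 7.04%.

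Of 10 other breakdown genes, 5 were tested, with a median log2 difference of 0.03 at 6h. Cemip2, a transmembrane hyaluronidase related to Cemip, rose at 6h from 80.2 to 93.1 CPM (log2 0.22 ± 0.032, edgeR adjusted p = 2.9e-06) and fell by 0.25 from 6h to 24h, the opposite order of times to Cemip itself. Arsb (log2 -0.13) was called lower at 6h and Hexa (log2 0.11) higher at 24h against 0h, and these calls were lost in 4 and 5 of 15 alternatives.

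Of 19 genes for other glycosaminoglycan chains, which draw on the same UDP-glucuronate, 17 were tested, and 3 rose and 7 fell at 6h (6 by DESeq2), where 20.8% and 18.2% of all genes did, with a median log2 difference of -0.06. One of the falls, Csgalnact2 (log2 -0.08), was lost in 7 of 15 alternatives. Glce, the epimerase of heparan sulphate, rose from 66.5 to 80.1 CPM (log2 0.27 ± 0.034, edgeR adjusted p = 2.3e-07). The partners of the heparan sulphate polymerase were called in opposite directions, with Ext1 at a log2 of 0.17 ± 0.026 (edgeR adjusted p = 6.2e-06) and Ext2 at -0.19 ± 0.029 (edgeR adjusted p = 5.5e-06). Chpf at 24h, a chondroitin polymerising factor, was lower than at 0h by a log2 of -0.22 ± 0.039 (edgeR adjusted p = 4.1e-04), and Ndst1 by -0.12 ± 0.030, a call lost without 0h replicate 2 or 24h replicate 3.

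The ChIP files list broad regions called in each library, and coverage here is the percent of a gene's bases, less 1 kb at each end, that lie inside them. With 1 library per condition no difference between conditions was tested. In the 6h library Has1, Has2 and Has3 each had 50% or more of the body in macroH2A2-GFP regions (72.3%, 92.0% and 89.1%), where 12.9% of all genes did. The count was 0 of 8 in the 0h library (3.56% of all genes), 0 at 24h (9.28%) and 0 at 5d (7.03%). It was 2 with flavopiridol (13.0%), 3 at 6h with GSK126 (14.2%) and 0 at 24h with GSK126 (6.23%). All 3 synthase genes lie on the chromosomes with the most coverage at 6h. Among genes of 10 CPM or more, 49.3% were covered to 50% or more on chromosome 15 (Has2), 52.4% on chromosome 17 (Has1) and 39.6% on chromosome 8 (Has3), against 0.35% to 19.4% on the others. These chromosomes also stood above the share of all genes in the 0h library, without induction. There 15.5% of the genes of chromosome 15, 16.7% of chromosome 17 and 8.81% of chromosome 8 were covered so, at any level of RNA, against 3.56% of all genes. The part of the chromosome in the coverage of these genes was not tested.

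**Figure D3:**
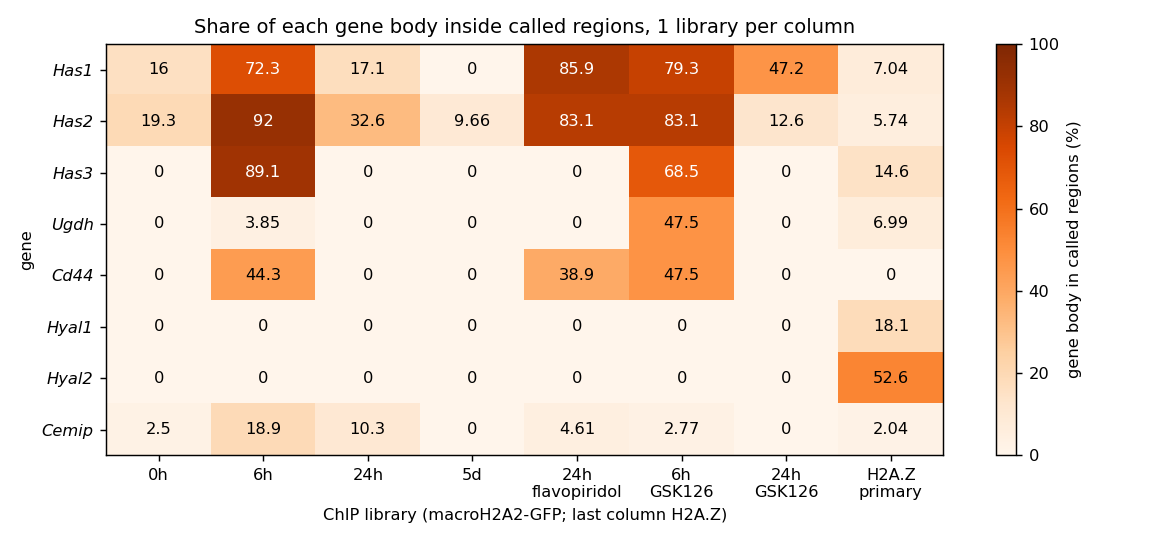
Percent of each gene body inside called regions (colour and number) for the 8 genes (rows) in 7 macroH2A2-GFP libraries and the H2A.Z library (columns). Has1 and Has2 are above 70% in the libraries at 6h, at 24h with flavopiridol and at 6h with GSK126, while Hyal1 and Hyal2 are at 0 in every macroH2A2-GFP column.

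Has2 (chr15:56665627-56694546) was covered to 19.3% at 0h, 92.0% at 6h, 32.6% at 24h and 9.66% at 5d. With flavopiridol at 24h it was covered to 83.1%, with GSK126 to 83.1% at 6h and to 12.6% at 24h. Most of these regions have the lowest score, 1. Without regions of score 1, Has2 was covered to 0% at 0h, 6h, 24h and with flavopiridol, to 34.8% at 6h with GSK126, and unchanged to 9.66% at 5d and 12.6% at 24h with GSK126. Of the 363 chromosome 15 genes of the same expression class (10 CPM or more), 38 were covered as much as Has2 or more at 6h, 28 at 24h and 32 with flavopiridol. The 0h region, 5.2 kb at chr15:56680001-56685200, lay in cells without induced macroH2A2-GFP, and 2600 bases of it were inside regions of all 7 macroH2A2-GFP libraries. Of the whole gene, 71.1% lay in 6h regions and outside that 0h region, 17.2% in 24h regions and 0.602% in 5d regions. The upper 2146 bases were in no macroH2A2-GFP region, and there the primary fibroblasts had an H2A.Z region of 3.8 kb (chr15:56692001-56695800), which shared 400 bases with the 6h regions.

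**Figure D4:**
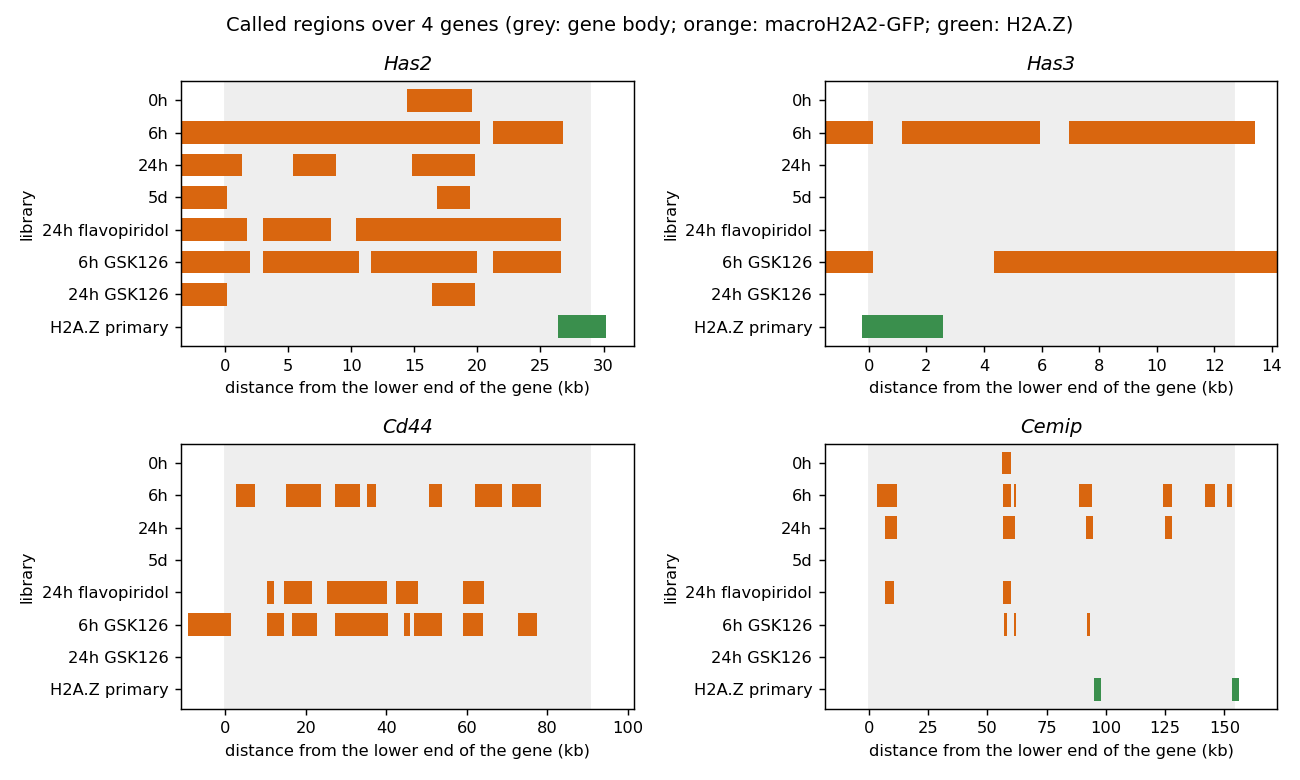
Called regions (bars) over Has2, Has3, Cd44 and Cemip by library (rows), as distance in kb from the lower end of the gene, whose body is shaded. Orange bars (macroH2A2-GFP) fill most of Has2 at 6h and leave its upper end, where the green H2A.Z bar lies, and the Has3 rows are empty in 5 of the 7 macroH2A2-GFP libraries. Only regions that overlap the gene are drawn. Regions not drawn end 0.042 kb below Has3 with flavopiridol, 0.242 kb below it at 24h and 0.027 kb below Has2 at 0h.

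Has1 (chr17:17833691-17855589) was covered to 16.0% at 0h, 72.3% at 6h, 17.1% at 24h and 0% at 5d. It was covered to 85.9% with flavopiridol, to 79.3% at 6h with GSK126 and to 47.2% at 24h with GSK126. Without regions of score 1, Has1 was covered to 52.3% at 6h and to 0% in the other 6 macroH2A2-GFP libraries. Of the 63 chromosome 17 genes of its class (0.1 to 1 CPM), 57.1% were covered to 50% or more at 6h and 28 had at least the coverage of Has1. Its promoter window shown above lay wholly inside macroH2A2-GFP regions at 6h, with flavopiridol and in both GSK126 libraries, and outside regions at 0h, 24h and 5d. The regions that hold this window all have score 1, so that without them it lay in no macroH2A2-GFP region. Running numbers of regions skip 1 or 2 values beside Has1 in 4 of these libraries, and rows with those numbers were not used here.

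Has3 (chr8:106870242-106882902) differed from the other synthases in where it was covered. It was at 89.1% at 6h and 68.5% at 6h with GSK126, and at 0% in the other 5 macroH2A2-GFP libraries, flavopiridol included. All its macroH2A2-GFP regions have score 1, so that without them its coverage is 0% throughout. With flavopiridol 46.2% of the 80 chromosome 8 genes of its class (1 to 10 CPM) were covered to 50% or more. At 6h 10 of those 80 genes reached the coverage of Has3.

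Cd44 (chr2:102811141-102901669) was covered to 44.3% at 6h in 7 separate regions, 38.9% with flavopiridol and 47.5% at 6h with GSK126, and to 0% at 0h, 24h, 5d and 24h with GSK126. Without regions of score 1 it was at 0% at 6h, 2.03% with flavopiridol and 0.52% at 6h with GSK126. Of 678 chromosome 2 genes of its class, 157 had at least its coverage at 6h and 63 with flavopiridol. Ugdh (chr5:65413207-65435842) was covered to 3.85% at 6h and 47.5% at 6h with GSK126, and to 0% in the other 5 libraries, all of it in regions of score 1. Running numbers skip 1 value beside Ugdh at 6h. Its difference of 43.6 points between the 6h libraries with and without GSK126 was exceeded by 2.98% of genes of its class.

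Hyal2 (chr9:107567873-107572778) and Hyal1 (chr9:107576950-107581699), neighbours on the same strand, were at 0% of the trimmed body in all 7 macroH2A2-GFP libraries. Over the whole gene, a region of score 2 covered 2.08% of Hyal1 with flavopiridol. A region of score 3 covered 3.63% of Hyal2 at 6h with GSK126. Genes with no region in the trimmed body made up 82.3% of all genes at 0h, 51.1% at 6h, 71.7% at 24h and 75.7% at 5d. They made up 61.0% with flavopiridol, and 45.6% at 6h and 74.2% at 24h with GSK126. Cemip (chr7:83932857-84086693) was covered to 2.50% at 0h, 18.9% at 6h, 10.3% at 24h and 0% at 5d. With flavopiridol it was covered to 4.61%, and with GSK126 to 2.77% at 6h and 0% at 24h. A region within it near chr7:83989601-83992800 recurred in 5 of the 7 libraries, the 0h library among them. Of the 221 chromosome 7 genes of the class of Cemip (1 to 10 CPM), 2.26% were covered to 50% or more at 6h and 30 had at least its coverage.

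**Figure D5:**
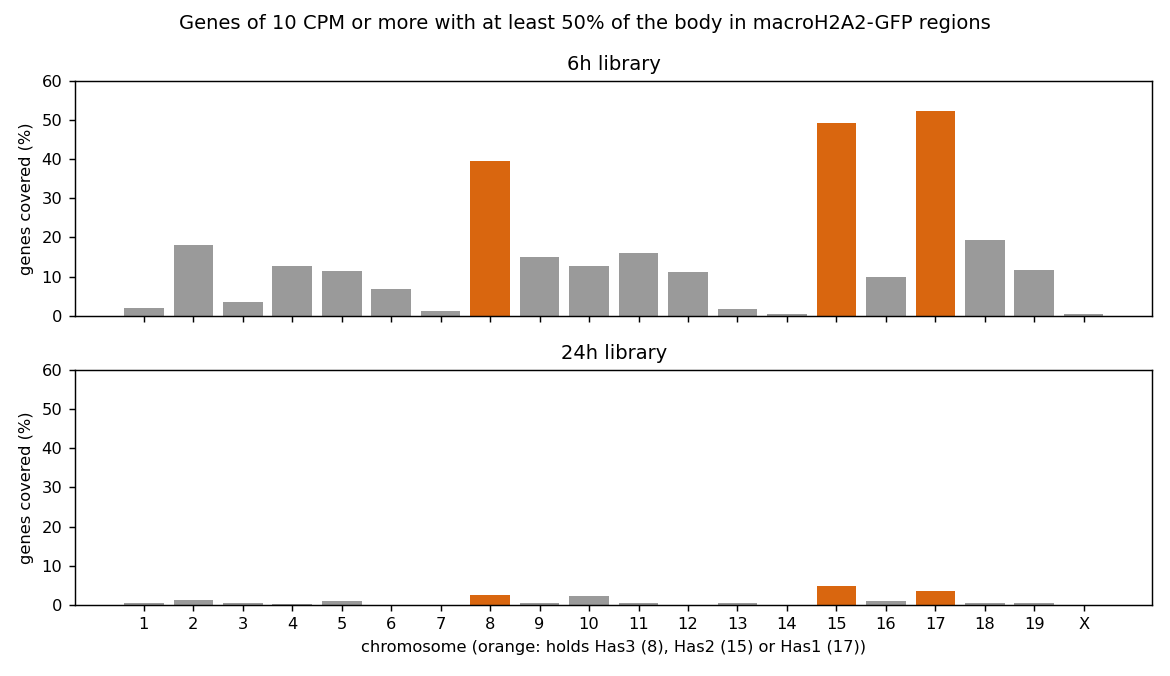
Percent of genes of 10 CPM or more (y axis) with 50% or more of the body in macroH2A2-GFP regions, by chromosome (x axis), at 6h and 24h. The 3 orange bars, chromosomes 8, 15 and 17, stand at 39.6% to 52.4% at 6h, and chromosome 15 at 4.68% at 24h.

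H2A.Z regions of the primary fibroblasts covered 52.6% of the trimmed body of Hyal2, the only one of the 8 genes at 50% or more. Among all genes 2.76% reached 50%. The coverage of Hyal2 came from 1 region of 2.4 kb (chr9:107568001-107570400) that holds its promoter window, and was 48.9% over the whole gene. H2A.Z regions covered 18.1% of Hyal1, 14.6% of Has3, 7.04% of Has1 and 6.99% of Ugdh. They covered 5.74% of Has2, 2.04% of Cemip and 0% of Cd44, where 39.2% of all genes were at 0%. The promoter windows of Hyal1, Hyal2, Ugdh and Cemip lay wholly inside H2A.Z regions and outside every macroH2A2-GFP region. Those of Has1 and Cd44 lay outside H2A.Z regions, and that of Cd44 lay in no called region of any of the 8 libraries. These cells differ from the immortalized line in genotype, sex, passage and transformation as well as in the histone profiled, and the libraries were not tested against each other.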

How the data were processed

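The members, the gene lists and the tests were chosen with earlier results of these data known. Per the submitters' processing notes, STAR 2.5.2b, Bowtie 1.1.2 and SICER 1.1 were used. The deposited RNA files hold raw read counts per gene from 80-base single-end directional libraries. The region files made by the authors hold a score for each region, in whole numbers and on a scale that is not given in the sources used here, and a running number (unit: other) that is no measurement. Regions had been called on 1 library at a time, with windows of 200 bases, gaps of 800 and a threshold of 0.01, as the names of the deposited lists give it. The input library was not used here.

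Counts came from 1 strand, which held at least 96.6% of stranded reads. A single edgeR fit (version 4.0.16, R 4.3.3) over the 9 libraries used filterByExpr, TMM and the quasi-likelihood test, with Benjamini-Hochberg adjustment over 13785 genes. CPM are TMM-normalised. Of 48440 gene identifiers, 48058 matched a symbol. From 21.2% to 23.1% of reads were in rows that name no gene and were left out. P-values measure the spread between these libraries. Replicate numbers did not pair the libraries. Named genes were the 8 members, up to 4 called genes of each list by smallest p, the targeted genes, Has2os and the 5 genes most like Has2. Acta1 and Csgalnact2 were named after their values were seen. A few genes that this rule selects are not reported here. Coverage used gene positions of RefSeq GRCm38.p6, Python 3.11.15, numpy 2.4.6 and pandas 2.3.3, and figures matplotlib 3.10.9. The RNA fit was first tried on simulated data with known changes.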

Additional observations from a re-analysis of the deposited data

How the results depend on the processing

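Under other scaling, filtering, strand, sample and replicate settings and DESeq2 1.42.0, the counts of the 8 genes called stayed within 1.5 times their value, and no difference of a named gene that was called changed sign. Over all genes, the 971 called at 24h against 0h became 553 to 1148 when 1 library was left out, the lowest without 0h replicate 2. Same-numbered libraries did not deviate together (correlations from -0.02 to 0.05, and 8 of 18 library pairs best with their own number). With the replicate number as a block, 5, 0 and 6 of the 8 genes were called at 6h against 0h, 24h against 0h and 24h against 6h, as without it. Without the block, 39%, 7.04% and 36.1% of all genes were called. The list was drawn up with the 6h libraries known, so nothing is read from counts that use them, however stable.

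Coverage of the synthase genes, Cd44 and Ugdh depends largely on the weakest regions. The regions over Cemip at 24h all have score 2 or 3, as do those at 6h except chr7:84057001-84060800. Leaving out regions at or below the lower quartile of score takes out every region of score 1, because of ties, which is 41.3% to 69.9% of a library. At 6h it takes out 48.3% of all regions, but 72.9% on chromosome 8 (Has3), 73.6% on chromosome 15 (Has2) and 80.4% on chromosome 17 (Has1). The genes covered to 50% or more then number 1 at 6h (Has1, 52.3%), 0 with flavopiridol and 0 at 6h with GSK126, and Has2 then stands at 0% at 6h and with flavopiridol and at 34.8% at 6h with GSK126, Has3 at 0% throughout, and Has1 at 0% with flavopiridol and at 6h with GSK126. With 20% or more as covered the count is 1 at 24h, 5 at 6h with GSK126 and 1 at 24h with GSK126. With 80% or more it is 1 at 6h with GSK126 and 0 for H2A.Z, and over the whole gene body it is 0 for H2A.Z. The shares of all genes under these other settings are not given, so these counts show only how the 8 genes depend on the setting. With the wider calls of 5d (window 1000, gap 4000) Has2 was covered to 42.9%. The files give no read depth for a region. Has1, Has3 and Hyal1, at about 1 CPM, had intervals too wide to show small changes.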
